A study of Mus musculus with 18 samples.

Results

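JAK-STAT signalling was followed through 10 genes of the series' gene count table, selected by name in all 6 groups: the transcription factors *Stat3*, *Stat5a*, *Stat5b* and *Stat6*, the kinases *Jak1* and *Jak2*, and the feedback inhibitors *Socs1*, *Socs2*, *Socs3* and *Cish*. They are 10 of the 54532 genes in the table, and all 10 were among the 14317 genes that passed the filter on low counts and were tested. The libraries came from C3H10T1/2 cells (10T1/2, spelled CH310T1/2 in the labels), a multipotent mouse fibroblast line grown past confluence, and each of the 6 groups held 3 libraries. Cells were WT or belonged to FOXS1 KO clone 1 or FOXS1 KO clone 2, each a CRISPR-Cas9 line grown from 1 edited cell. The loss of FOXS1 cannot be told apart from other changes that arose in a clone. Each genotype was sampled uninduced (labelled Control) and after 1 nM TGF-β1 for 12 h followed by DMII for 48 h (called stimulated here), where DMII is an adipogenic mix of insulin, indomethacin, dexamethasone and the phosphodiesterase inhibitor IBMX. Uninduced cells received neither TGF-β1 nor DMII, so the parts of the stimulus cannot be told apart. No source says that the 3 libraries of a group came from separate cultures, in which case p-values measure only the spread between these libraries. *Foxs1*, the targeted gene, had 1.81, 3.25 and 1.64 CPM (counts scaled to library size, with TMM normalization) in the libraries labelled WT uninduced and 3.13, 2.55 and 1.85 CPM in those labelled WT stimulated. The libraries labelled FOXS1 KO clone 1 held more of it, 26.7, 27.1 and 23.4 CPM uninduced and 53.6, 52.9 and 56.8 CPM stimulated, as did those labelled clone 2 with 21.1, 22.9 and 23.9 CPM and 38.8, 38.0 and 42.8 CPM. Gene totals do not show an edit, so every direction given for a clone rests on the label of its libraries.

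In this pathway a cytokine or hormone binds a receptor that carries Janus kinases (JAKs), the JAKs phosphorylate each other and the receptor, and STAT proteins recruited to the receptor are phosphorylated, pair up and enter the nucleus. STATs then switch on target genes, among them the SOCS genes and *Cish*, whose proteins bind JAKs or receptors and shut the signal off. STAT3 carries signals of the IL-6 family, STAT5A and STAT5B those of growth hormone, prolactin and several interleukins, and STAT6 those of IL-4 and IL-13. In adipocyte precursors STAT5A and STAT5B are known as promoters of fat cell differentiation. STAT activity is set by phosphorylation, which RNA counts do not measure.

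Library totals ran from 15576685 to 42005596 counts. Of the 8 fibroblast markers (*Col1a1*, *Col1a2*, *Col3a1*, *Pdgfra*, *Pdgfrb*, *Thy1*, *Vim* and *S100a4*), all 8 exceeded 1 CPM in every group except both groups of clone 2, where 7 did and *Thy1* stayed at 0.870 CPM or below. The 6 mature adipocyte markers summed to 0.293 to 2.39 CPM in WT cells and in uninduced clones, to 30.5 to 43.0 CPM in stimulated clone 1 and to 2.71 to 4.64 CPM in stimulated clone 2. *Lep* and *Retn* of that list were at 0 in every library, and *Fabp4*, *Plin1* and *Cidec* made up most of the sum in stimulated clone 1. In clone 2 *Cidec* stayed at 0.112 CPM or below. *Adipoq*, the remaining marker, stayed at 1.11 CPM or below in every library. In clone 2 it held 0.928 to 1.00 CPM uninduced and 0 to 0.224 CPM stimulated, against 0.0911 to 0.369 CPM in stimulated clone 1. The sums of the other marker lists reached at most 1.45 CPM (6 leukocyte genes), 7.92 CPM (4 endothelial genes, in uninduced WT cells, mainly *Tek*) and 3.52 CPM (4 epithelial genes), while *Ptprc* and *Cd3e* were at 0 in all 18 libraries. Fold changes, standard errors (SE) and Benjamini-Hochberg adjusted p-values come from edgeR's quasi-likelihood test over all 14317 genes. A gene is said to rise or fall where the adjusted p was below 0.05, and DEG is kept for those that also passed an absolute log2 fold change of 1, the thresholds of the study's methods.

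*Stat5a* and *Stat5b*, on which most of the results turn, are neighbouring copies of one ancestral gene. A stretch of coding sequence they share is shown because a read pair lying wholly within identical sequence cannot be assigned to either gene. The longest identical run between transcripts Stat5a-201 and Stat5b-201 is 324 bases, all coding, and its middle 152 bases form exon 8 of Stat5a-201 (GRCm38, chr11:100874339-100874490, plus strand) and exon 7 of Stat5b-201 (GRCm38, chr11:100798234-100798385, minus strand).
Stat5a exon 8 and Stat5b exon 7: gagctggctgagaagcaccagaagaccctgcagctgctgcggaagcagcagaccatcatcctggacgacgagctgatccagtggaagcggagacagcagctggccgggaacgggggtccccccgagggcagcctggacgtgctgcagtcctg
Identical stretches of this kind are a small part of both genes. Of all 150-base windows in their annotated transcripts, 2.21% of those of *Stat5a* (175 of 7921) and 3.16% of those of *Stat5b* (175 of 5535) occur in the other gene. No other pair among the 10 genes shares a window of 150, 100 or 50 bases. How the counting treated reads that match both genes is not given in the sources used here, so their separate values carry that uncertainty.

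STAT3 and STAT5 bind DNA at the letters TTCNNNGAA, a palindrome that reads the same on both strands, and the 250 bases upstream of a RefSeq transcription start (GRCm38.p6) were searched for it. Windows were found for 9 of the 10 genes (11 windows), with *Socs2* the one without an entry. Of these the *Socs3* window alone held the letters, starting 154 bases upstream of the transcription start. Over all 32851 upstream windows 7.02% held them, so the match in the *Socs3* window does not set these genes apart from the background. The part of that window outside annotated exons is shown because it holds the match, with the motif in capitals. It is 165 bases long and lies at GRCm38 chr11:117969452-117969616 on the minus strand. These bases are upstream of the RefSeq start used, but lie within the span annotated for *Socs3* in the count table, chr11:117966079-117970047.
Socs3 upstream: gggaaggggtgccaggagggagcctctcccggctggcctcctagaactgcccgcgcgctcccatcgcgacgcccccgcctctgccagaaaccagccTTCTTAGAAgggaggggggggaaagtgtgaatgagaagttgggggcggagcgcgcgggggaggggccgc
A match of letters does not show binding, and its absence from the other windows says only that these 250 bases do not contain it.

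Per length, *Stat6* and *Stat3* were the most abundant of the 10 mRNAs in uninduced WT cells. Divided by the length of its exons, *Stat6* stood at 46.3 ± 2.05 CPM per kb (SD, n = 3) and *Stat3* at 36.2 ± 1.54 CPM per kb. They were followed by *Jak1* at 19.7 ± 0.547, *Socs3* at 17.99 ± 0.259, *Stat5a* at 10.3 ± 1.02 and *Jak2* at 9.86 ± 0.191 CPM per kb. The lowest were *Stat5b* at 8.46 ± 0.283, *Socs1* at 5.20 ± 1.77, *Socs2* at 2.97 ± 0.265 and *Cish* at 0.544 ± 0.0250 CPM per kb. The libraries of neighbours in this order overlapped only between *Stat5a* and *Jak2*. In stimulated WT cells *Stat3* (37.9 ± 0.956 CPM per kb) led, *Stat6* (36.0 ± 0.908) and *Socs3* (35.3 ± 1.56) followed with overlapping libraries, and *Stat5a* dropped to the eighth place at 4.03 ± 0.212 CPM per kb. In stimulated clone 1 *Stat5a* took the fourth place at 27.5 ± 1.38 CPM per kb, behind *Stat3* (70.9 ± 2.49), *Socs3* (43.9 ± 2.41) and *Stat6* (31.1 ± 0.816). In stimulated clone 2 it took the fifth place at 17.6 ± 1.06 CPM per kb, its libraries overlapping those of *Jak2* (16.6 ± 1.20). *Cish* was the lowest of the 10 in every group, at 0.104 to 0.544 CPM per kb. Single-gene lengths cover all annotated exons of a gene, so that levels per kb of genes with many isoforms are approximate.

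**Figure D1:**
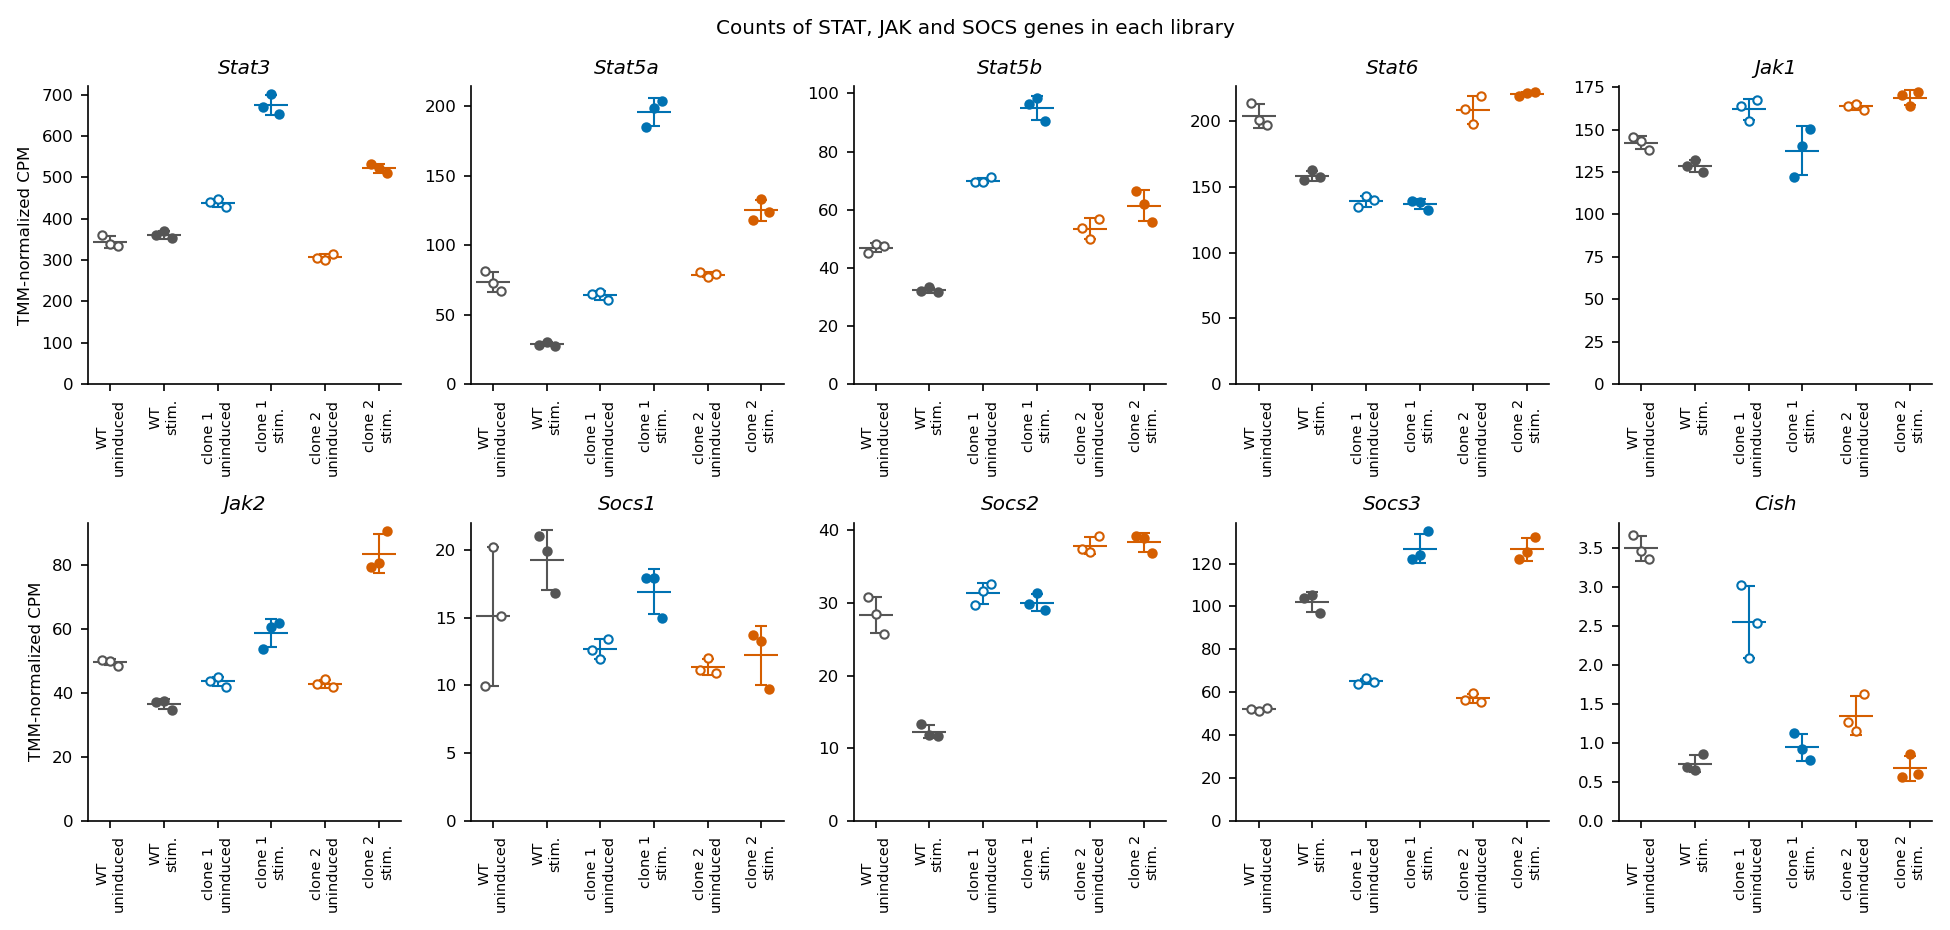
TMM-normalized CPM (vertical axes, each from 0) of the 10 genes in all 18 libraries, by group (horizontal axes). Points are libraries (open, uninduced; filled, stimulated), horizontal dashes are group means and bars are ± 1 SD (n = 3); *Stat5a* lies at 27.6 to 30.4 CPM in stimulated WT cells and at 118 to 204 CPM in the stimulated clones.

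In WT cells, stimulation lowered *Stat5a*, *Socs2* and *Cish* and raised *Socs3*. *Cish*, an inhibitor that binds STAT5 docking sites on cytokine receptors, fell from 3.67, 3.46 and 3.35 CPM in uninduced WT cells to 0.685, 0.648 and 0.857 CPM in stimulated ones. *Stat5a* fell from 81.4, 72.5 and 67.0 CPM to 28.2, 30.4 and 27.6 CPM, and *Socs2*, best known for restraining growth hormone signalling, from 30.8, 28.5 and 25.8 CPM to 13.3, 11.8 and 11.7 CPM. In all 3 genes the libraries of the treatments did not overlap, and in bulk RNA fewer cells that express a gene cannot be told apart from less of its RNA per cell. The log2 fold change was -2.25 (95% interval -2.92 to -1.58, adjusted p = 6.93e-07) for *Cish* in edgeR's quasi-likelihood test. It was -1.35 (95% interval -1.49 to -1.21, adjusted p = 1.44e-16) for *Stat5a* and -1.21 (95% interval -1.39 to -1.03, adjusted p = 4.86e-13) for *Socs2*. These were the 3 DEGs among the 10 genes, all lower, beside 19.9% of all tested genes called (13.6% lower and 6.25% higher). *Socs3*, the inhibitor that blocks signalling of IL-6 type receptors, rose from 52.1, 51.2 and 52.7 CPM to 104, 105 and 96.9 CPM. Its log2 fold change of 0.97 (95% interval 0.86 to 1.09, adjusted p = 2.68e-15) fell just short of the threshold of 1 with edgeR. Without the third stimulated WT library, or without the filter on low counts, it was 1.03 or 1.01 and *Socs3* was a DEG as well. *Stat5b*, *Stat6*, *Jak1* and *Jak2* fell by less than 2-fold, with log2 fold changes of -0.54, -0.36, -0.15 and -0.44 (edgeR adjusted p = 7.38e-08, 1.05e-07, 0.026 and 2.03e-06). *Stat3*, at 361, 339 and 334 CPM uninduced and 361, 371 and 352 CPM stimulated, and *Socs1*, at 9.96, 20.2 and 15.2 CPM and 21.1, 19.9 and 16.8 CPM, had overlapping libraries and did not pass the test (edgeR adjusted p = 0.17 and 0.0784). The libraries of the treatments did not overlap for 8 of the 10 genes (62.0% of all tested genes), and 8 of the 10 changed at an adjusted p below 0.05 (1 higher, 7 lower), beside 60.7% of all tested genes. The median log2 fold change of the 10 was -0.40, and that of all tested genes -0.04.

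*Stat5a* (ENSMUSG00000004043, GRCm38 chr11:100859351-100885169, plus strand) responded in opposite directions in WT cells and in the clones. In clone 1 its level was 64.9, 66.4 and 60.3 CPM uninduced and 185, 199 and 204 CPM stimulated. In clone 2 it was 80.4, 77.0 and 79.2 CPM uninduced and 118, 133 and 124 CPM stimulated. In both clones every stimulated library thus lay above every uninduced one, the reverse of WT cells. The response was a log2 fold change of 1.62 (95% interval 1.49 to 1.75, adjusted p = 3.66e-19) in clone 1 and 0.67 (95% interval 0.54 to 0.80, adjusted p = 2.62e-10) in clone 2, by edgeR's quasi-likelihood test. Against stimulated WT cells *Stat5a* was 6.82-fold higher in clone 1 (log2 fold change 2.77, 95% interval 2.63 to 2.91, adjusted p = 2.83e-24). In clone 2 it was 4.35-fold higher (2.12, 95% interval 1.98 to 2.26, adjusted p = 2.44e-21), and every stimulated clone library lay above every stimulated WT library. Among all tested genes, 2.58% had a higher log2 fold change in stimulated clone 1. In uninduced cells the clones differed little from WT, with log2 fold changes of -0.20 (SE 0.07, adjusted p = 0.0104) in clone 1 and 0.10 (SE 0.06, adjusted p = 0.18) in clone 2 from edgeR. The difference in response between clone and WT, tested as an interaction, was a log2 value of 2.97 (95% interval 2.78 to 3.17, adjusted p = 1.41e-20) in clone 1 and 2.02 (95% interval 1.83 to 2.21, adjusted p = 1.08e-16) in clone 2. The stimulated clones differed from each other too, with *Stat5a* higher in clone 1 by a log2 value of 0.65 (SE 0.06, adjusted p = 6.80e-10). The mature adipocyte markers, summed, were also higher in stimulated clone 1 (30.5 to 43.0 CPM) than in stimulated WT cells (0.293 to 1.22 CPM) and intermediate in clone 2 (2.71 to 4.64 CPM). Of these markers, *Adipoq* stayed at 0.369 CPM or below in all stimulated groups. The part of the markers in the *Stat5a* values was not tested.

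*Stat5b* (ENSMUSG00000020919, GRCm38 chr11:100780731-100850724, minus strand), the partner of *Stat5a*, moved in the same directions by smaller amounts. It fell in stimulated WT cells from 45.1, 48.1 and 47.4 CPM to 32.0, 33.3 and 31.6 CPM. In clone 1 it was 69.5, 69.5 and 71.1 CPM uninduced and 96.4, 98.4 and 90.5 CPM stimulated. In clone 2 the values were 53.7, 49.9 and 56.9 CPM and 66.5, 62.0 and 55.7 CPM. The treatments did not overlap in WT cells and clone 1, and overlapped in clone 2, where one stimulated library lay within the uninduced range. The response was a log2 fold change of 0.44 (SE 0.06, adjusted p = 8.77e-07) in clone 1 and 0.20 (SE 0.07, adjusted p = 0.011) in clone 2 by edgeR. Against stimulated WT cells *Stat5b* was higher by a log2 value of 1.56 (95% interval 1.42 to 1.70, adjusted p = 2.39e-18) in clone 1. In clone 2 the value was 0.93 (95% interval 0.79 to 1.07, adjusted p = 1.01e-12), just short of a DEG. In uninduced clones it was already higher than in WT cells, by 0.58 (SE 0.07, adjusted p = 1.38e-08) in clone 1 and 0.19 (SE 0.07, adjusted p = 0.0172) in clone 2 on the log2 scale (edgeR). The interaction was 0.98 (SE 0.09, adjusted p = 9.97e-10) in clone 1 and 0.74 (SE 0.10, adjusted p = 3.23e-07) in clone 2. Leaving out the first uninduced WT, the second stimulated WT or the third stimulated clone 1 library brought the value of clone 1 to 1.003, 1.004 and 1.02, past the threshold. Per length, the ratio of *Stat5a* to *Stat5b* levels was 1.22 ± 0.158 (SD, n = 3) in uninduced and 0.691 ± 0.0167 in stimulated WT cells. It was 0.708 ± 0.0443 and 1.60 ± 0.134 in clone 1, and 1.15 ± 0.0606 and 1.59 ± 0.184 in clone 2. Stimulation therefore shifted the balance towards *Stat5b* in WT cells and towards *Stat5a* in both clones, with no overlap between the treatments in any genotype.

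**Figure D2:**
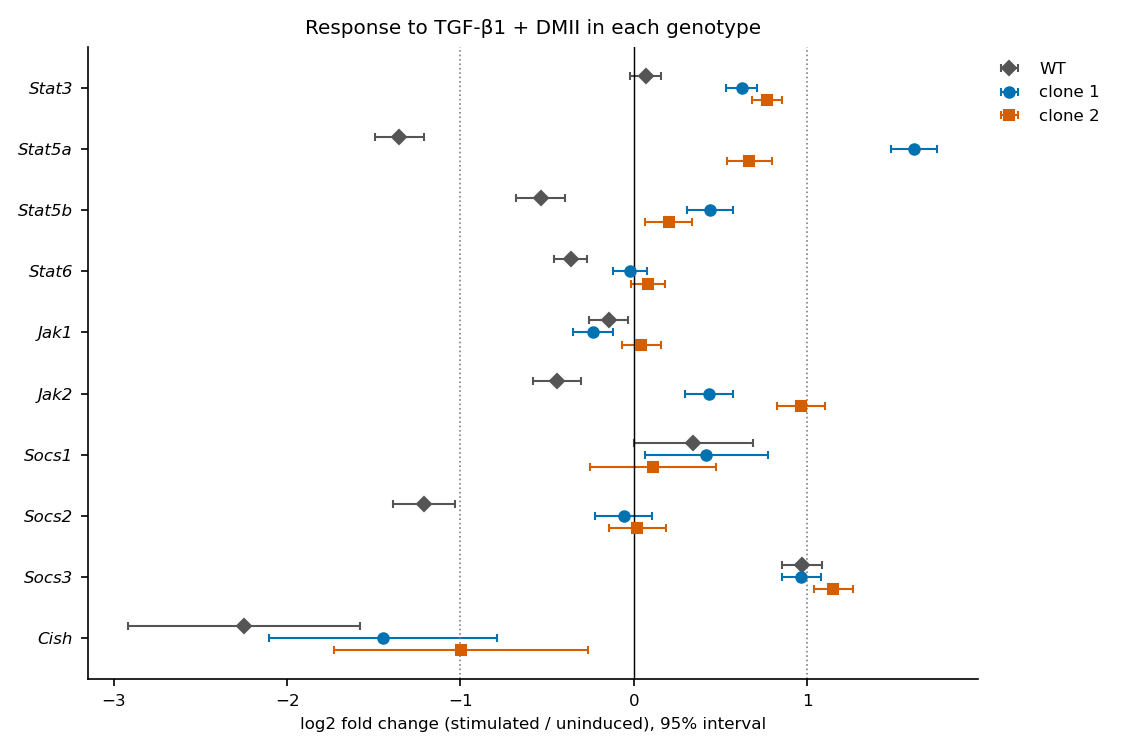
Log2 fold change of stimulated over uninduced cells (horizontal axis) for each of the 10 genes in each genotype, with 95% intervals from edgeR (n = 3 libraries a group) and dotted lines at an absolute value of 1. *Stat5a* lies at -1.35 (WT), 1.62 (clone 1) and 0.67 (clone 2), whereas *Socs3* lies near 1 in all 3 genotypes.

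*Stat3* (ENSMUSG00000004040, GRCm38 chr11:100885098-100939540, minus strand), the STAT of the IL-6 family, rose with stimulation in the clones and did not pass the test in WT cells. Clone 1 held 439.6, 448 and 429 CPM uninduced and 669.6, 701 and 655 CPM stimulated, and clone 2 held 306, 300.5 and 314 CPM and 533, 523 and 512 CPM. Treatments did not overlap in either clone. The log2 fold change was 0.62 (SE 0.04, adjusted p = 1.66e-13) in clone 1 and 0.77 (SE 0.04, adjusted p = 1.16e-15) in clone 2 by edgeR. Stimulated clone 1 lay 1.87-fold above stimulated WT cells (log2 fold change 0.90, 95% interval 0.81 to 0.99, adjusted p = 2.22e-17) and clone 2 1.45-fold (0.53, 95% interval 0.45 to 0.62, adjusted p = 5.98e-12), both under the 2-fold threshold. In uninduced cells the clones went apart, with *Stat3* higher than WT in clone 1 (0.35, SE 0.04, adjusted p = 4.78e-08) and lower in clone 2 (-0.17, SE 0.04, adjusted p = 0.00138, log2 fold changes from edgeR). The difference in response was a log2 value of 0.55 (SE 0.06, adjusted p = 1.15e-08) in clone 1 and 0.70 (SE 0.06, adjusted p = 1.13e-10) in clone 2. *Stat3* and *Stat5a* overlap by 72 exonic bases on opposite strands, 0.756% of the exon bases of *Stat3*.

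*Stat6* (ENSMUSG00000002147, GRCm38 chr10:127642986-127660957, plus strand), the STAT of IL-4 and IL-13, changed by less than 2-fold in every comparison. Clone 1 held 134, 143 and 140.1 CPM uninduced and 139, 139 and 133 CPM stimulated, with overlapping libraries. Clone 2 held 209, 198 and 219 CPM and 219.5, 222 and 222 CPM. Neither response passed the test (edgeR log2 fold change -0.02, 95% interval -0.12 to 0.08, adjusted p = 0.73 in clone 1 and 0.08, 95% interval -0.01 to 0.18, adjusted p = 0.14 in clone 2). *Stat6* fell in WT cells from 214, 201 and 197 CPM to 155, 163 and 157 CPM. In clone 1 it was lower than WT both uninduced (-0.55, SE 0.05, adjusted p = 4.74e-11) and stimulated (-0.21, SE 0.05, adjusted p = 4.05e-04, log2 fold changes from edgeR). In clone 2 it was higher than WT when stimulated (0.48, SE 0.05, adjusted p = 6.09e-10). On chromosome 10, where *Stat6* and *Socs2* lie, 518 genes averaging 5 CPM or more had a median log2 fold change of -0.41 uninduced and -0.43 stimulated in clone 1 against WT, and of 0.07 and 0.05 in clone 2. The part of this shift in the *Stat6* and *Socs2* values was not tested.

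Of the kinases, *Jak2* (ENSMUSG00000024789, GRCm38 chr19:29251828-29313080, plus strand) differed between the genotypes and *Jak1* little. JAK2 is the kinase of growth hormone, prolactin and erythropoietin receptors, and JAK1 serves most interferon and interleukin receptors. *Jak2* fell in WT cells from 50.3, 50.01 and 48.5 CPM to 37.1, 37.5 and 34.8 CPM. It rose in clone 1 from 43.9, 44.9 and 41.9 CPM to 53.7, 60.5 and 61.8 CPM and in clone 2 from 42.7, 44.2 and 41.7 CPM to 79.5, 80.8 and 90.6 CPM. The treatments did not overlap in any genotype, with the stimulated libraries lowest in WT cells and highest in clone 2. The response was a log2 fold change of 0.43 (SE 0.07, adjusted p = 2.94e-06) in clone 1 and 0.96 (SE 0.07, adjusted p = 2.21e-13) in clone 2 by edgeR. Without the first stimulated clone 2 library the latter was 1.01 and *Jak2* a DEG. Stimulated clone 1 exceeded stimulated WT cells by a log2 value of 0.69 (95% interval 0.55 to 0.83, adjusted p = 4.96e-10) and clone 2 by 1.20 (95% interval 1.06 to 1.34, adjusted p = 2.13e-15), a 2.29-fold difference. The clones differed in this, with *Jak2* lower in stimulated clone 1 than in stimulated clone 2 by a log2 fold change of -0.51 (SE 0.07, adjusted p = 1.92e-07). The difference in response against WT was 0.87 (95% interval 0.68 to 1.07, adjusted p = 1.58e-08) in clone 1 and 1.41 (95% interval 1.21 to 1.60, adjusted p = 6.84e-13) in clone 2 on the log2 scale (edgeR interaction). *Jak1* (ENSMUSG00000028530, GRCm38 chr4:101152367-101265282, minus strand) stayed between 122 and 172 CPM in all 18 libraries. It had 128, 132 and 125 CPM in stimulated WT cells, 122, 141 and 150.2 CPM in stimulated clone 1 and 171, 164 and 172 CPM in stimulated clone 2. It was higher than WT in stimulated clone 2 (0.39, 95% interval 0.28 to 0.51, adjusted p = 6.37e-07). In clone 1 the difference did not pass the test (0.10, 95% interval -0.02 to 0.21, adjusted p = 0.13, log2 fold changes from edgeR). Genes of chromosome 4, where *Jak1* lies, had medians of -0.24 in stimulated clone 1 and -0.27 in stimulated clone 2 (633 genes). Per length, *Jak1* exceeded *Jak2* by a ratio of 2.00 ± 0.0184 (SD, n = 3) in uninduced and 2.45 ± 0.0482 in stimulated WT cells. The ratio fell from 2.59 ± 0.188 to 1.63 ± 0.0556 in clone 1 and from 2.66 ± 0.0514 to 1.41 ± 0.0854 in clone 2, with no overlap between treatments in any genotype.

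The 4 feedback inhibitors split into *Socs2*, whose fall in WT cells was not seen in the clones, *Socs3*, which rose in all genotypes, and *Cish* and *Socs1* at lower levels. *Socs2* (ENSMUSG00000020027, GRCm38 chr10:95385362-95417180, minus strand) held 29.8, 31.6 and 32.6 CPM in uninduced and 29.8, 31.4 and 29.0 CPM in stimulated clone 1. In clone 2 it held 37.4, 37.0 and 39.2 CPM and 39.3, 39.0 and 36.9 CPM. Treatments overlapped in both clones, and all 6 stimulated clone libraries lay above all 3 stimulated WT libraries. The log2 fold change with stimulation was -0.06 (95% interval -0.22 to 0.11, adjusted p = 0.57) in clone 1 and 0.02 (95% interval -0.14 to 0.18, adjusted p = 0.86) in clone 2 by edgeR. In stimulated cells *Socs2* was 2.46-fold higher than WT in clone 1 (log2 fold change 1.30, 95% interval 1.12 to 1.48, adjusted p = 8.10e-14) and 3.14-fold higher in clone 2 (1.65, 95% interval 1.47 to 1.83, adjusted p = 3.52e-16). The difference in response was a log2 value of 1.15 (95% interval 0.91 to 1.39, adjusted p = 4.46e-09) in clone 1 and 1.23 (95% interval 0.99 to 1.47, adjusted p = 1.19e-09) in clone 2. Both interactions were over 2-fold in estimate, but neither passed a test against the 2-fold threshold itself.

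*Socs3* (ENSMUSG00000053113, GRCm38 chr11:117966079-117970047, minus strand) rose about 2-fold with stimulation in each genotype. It went from 64.0, 66.4 and 64.7 CPM to 122, 124 and 135 CPM in clone 1 and from 56.2, 59.6 and 55.3 CPM to 122, 125 and 133 CPM in clone 2. No stimulated library overlapped an uninduced one. The log2 fold change was 0.97 (95% interval 0.85 to 1.08, adjusted p = 2.51e-15) in clone 1 and 1.15 (95% interval 1.04 to 1.26, adjusted p = 3.69e-17) in clone 2, where *Socs3* was a DEG. Without the first stimulated clone 1 library the value in clone 1 was 1.01 and passed the threshold as well (edgeR). The difference in response against WT was -0.17 to 0.15 in clone 1 and 0.02 to 0.34 in clone 2 as 95% intervals on the log2 scale, so that a difference in response of 2-fold lay outside both. Stimulated clones stood slightly above stimulated WT cells, by log2 values of 0.32 (SE 0.05, adjusted p = 8.62e-06) and 0.31 (SE 0.05, adjusted p = 1.35e-05).

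*Cish* (ENSMUSG00000032578, GRCm38 chr9:107296026-107302784, plus strand) was the least counted of the 10 genes, with 217 counts over the 3 uninduced WT libraries and 48, 63 and 33 over those of stimulated WT cells, clone 1 and clone 2. In clone 1 it was 3.02, 2.09 and 2.54 CPM uninduced and 1.12, 0.922 and 0.774 CPM stimulated, and in clone 2 1.27, 1.15 and 1.62 CPM and 0.560, 0.850 and 0.601 CPM. Stimulated libraries lay below uninduced ones in both clones, as in WT cells. The log2 fold change was -1.45 (95% interval -2.10 to -0.79, adjusted p = 3.34e-04) in clone 1 and -0.997 (95% interval -1.73 to -0.27, adjusted p = 0.0187) in clone 2, the second on the threshold of 1. Uninduced clone 2 held less than WT (-1.38, 95% interval -2.004 to -0.76, adjusted p = 3.08e-04), all 3 libraries of clone 2 lying below all 3 of WT. The uninduced libraries of clone 1 also lay below all 3 of WT, but the difference did not pass the test (-0.45, 95% interval -1.05 to 0.15, adjusted p = 0.20). In stimulated cells neither comparison with WT passed the test (0.35, 95% interval -0.37 to 1.08, adjusted p = 0.40 in clone 1 and -0.13, 95% interval -0.91 to 0.65, adjusted p = 0.80 in clone 2), and at these counts the intervals are wide. Annotated antisense genes *Gm17040* and *Gm17041* lie over 11.5% of the exon bases of *Cish*, and since the strand setting is not known their reads cannot be told apart from it. *Socs1* (ENSMUSG00000038037, GRCm38 chr16:10782240-10785536, minus strand), an inhibitor that binds JAKs directly, varied more among uninduced WT libraries than between most groups. It held 12.7, 12.0 and 13.4 CPM in uninduced and 17.9, 17.9 and 14.99 CPM in stimulated clone 1, and 11.1, 12.0 and 10.9 CPM and 13.7, 13.3 and 9.74 CPM in clone 2. It rose with stimulation in clone 1 (0.42, SE 0.17, adjusted p = 0.0413). It was lower than WT in clone 2 both uninduced (-0.42, SE 0.17, adjusted p = 0.0421) and stimulated (-0.65, SE 0.17, adjusted p = 0.00245, log2 fold changes from edgeR). The uninduced clone 2 libraries all lay within the WT range, and leaving out 1 library gave values from -0.63 to -0.16. Genes of chromosome 16, where *Socs1* lies, had medians in clone 2 of 0.39 and 0.42 (336 genes). None of these reached 2-fold.

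Counted over the 10 genes, *Stat5a*, *Stat5b* and *Socs2* were DEGs in stimulated clone 1 against stimulated WT cells and *Stat5a*, *Jak2* and *Socs2* in stimulated clone 2, all higher. That is 3 of 10 in each, beside 19.0% of all tested genes in clone 1 (9.42% higher) and 16.9% in clone 2 (7.95% higher). At an adjusted p below 0.05 alone, 6 rose and 1 fell in clone 1 (58.9% of all tested genes changed) and 8 rose and 1 fell in clone 2 (56.0%). Libraries of clone and WT did not overlap for 7 of the 10 genes in clone 1 (65.9% of all tested genes) and for 9 in clone 2 (65.6%). The median log2 fold change of the 10 was 0.52 in clone 1 and 0.51 in clone 2, and that of all tested genes -0.02 and -0.01. The WT libraries are shared by the comparisons of both clones, so these counts are not independent. In uninduced cells none of the 10 was a DEG in clone 1 and 1, *Cish*, was in clone 2, beside 15.1% of tested genes in each, although 7 changed at an adjusted p below 0.05 in each clone (53.5% and 53.2%). DESeq2 gave the same counts of 0 and 1. For the response, 2 of 10 were DEGs in clone 1 (*Stat5a* higher, *Cish* lower, beside 16.7% of tested genes) and 1 in clone 2 (*Socs3* higher, beside 17.7%). At an adjusted p below 0.05 alone, 6 rose and 2 fell in clone 1 (54.5% of tested genes changed), and 5 rose and 1 fell in clone 2 (55.8%). For the difference in response, 2 of 10 were DEGs in clone 1 (*Stat5a* and *Socs2*, beside 8.81%) and 3 in clone 2 (*Stat5a*, *Jak2* and *Socs2*, beside 7.85%), all higher in the clone. At an adjusted p below 0.05 alone there were 6 in each (31.6% and 31.2%). Between the clones, edgeR called none of the 10 a DEG in uninduced or in stimulated cells (8.67% and 9.98% of tested genes), nor did DESeq2, while 7 and 8 of them passed an adjusted p of 0.05 alone (42.2% and 45.4%).

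**Figure D3:**
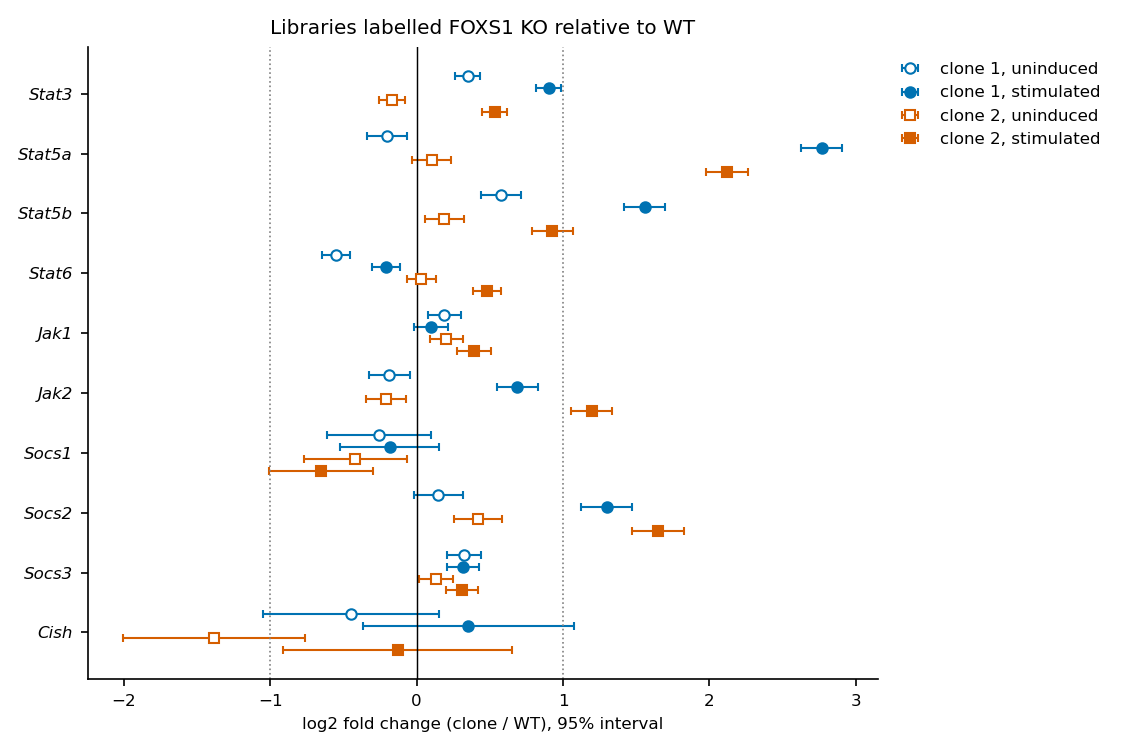
Log2 fold change of each clone over WT cells (horizontal axis) for the 10 genes, with 95% intervals from edgeR (n = 3 libraries a group) and dotted lines at an absolute value of 1. Stimulated clones (filled) lie to the right of uninduced ones (open) for *Stat5a*, *Stat5b*, *Stat3*, *Stat6*, *Jak2*, *Socs2* and *Cish*, with stimulated *Stat5a* at 2.77 and 2.12. For *Cish* the difference in response did not pass the test in either clone. The points of *Socs3* and *Jak1* lie close together.

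*Stat5b*, *Stat5a* and *Stat3* lie side by side on chromosome 11, and the tested genes around them that averaged 5 CPM or more, chosen by position alone, were compared as well. Against stimulated WT cells all 3 STAT genes and their neighbours *Ghdc* (1.94 in clone 1 and 1.01 in clone 2), *Rab5c* (0.55 and 0.29), *Cavin1* (0.53 and 0.24) and *Atp6v0a1* (1.33 and 0.70) had log2 fold changes above 0 in both clones. *Kat2a*, the farthest on the *Stat5b* side, had 0.16 in clone 1 and -0.28 in clone 2. *Ghdc* was a DEG in both clones and *Atp6v0a1* in clone 1. Chromosome 11 as a whole had medians of 0.09 and 0.01 (808 genes). Among these 8 genes *Stat5a* had the highest value in each clone. Of the genes there below 5 CPM, *Dhx58*, at a mean of 2.49 CPM over all 18 libraries, was a DEG in both clones as well (2.34 and 2.08). Its log2 fold change in the WT response was -4.08, so that its level in stimulated WT cells lay below that mean. *Dhx58os*, at a mean of 0.696 CPM, had values of -2.64 in clone 1 and 2.02 in clone 2 and was a DEG in neither.

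**Figure D4:**
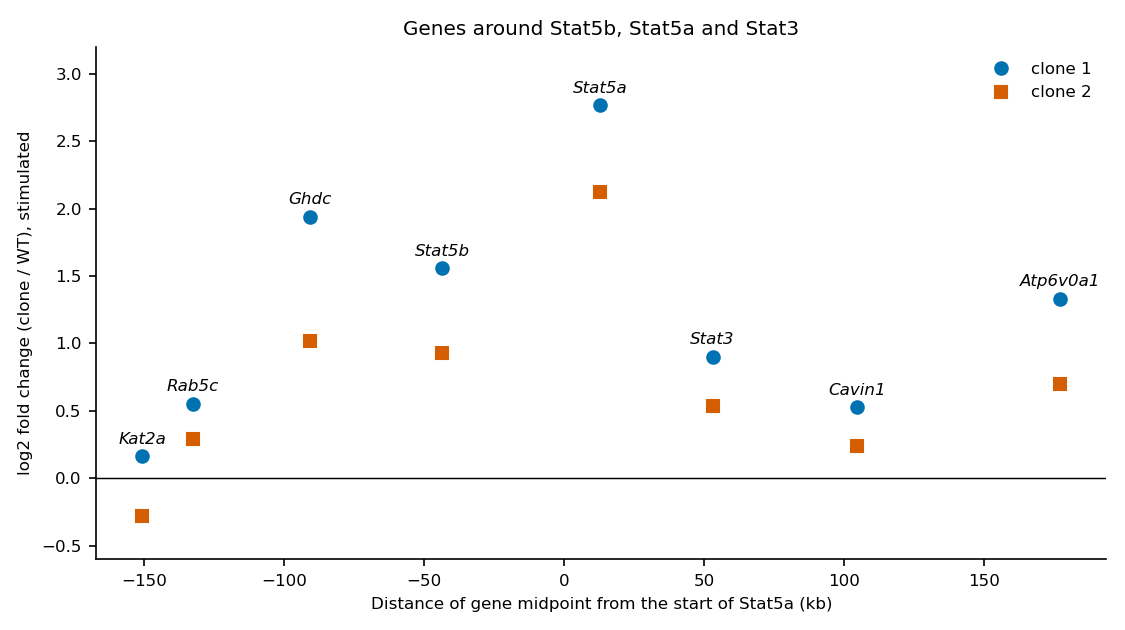
Log2 fold change of stimulated clones over stimulated WT cells (vertical axis) against the distance of each gene's midpoint from the start of *Stat5a* in kb (horizontal axis), for the 8 tested genes averaging 5 CPM or more within 100 kb of *Stat5b*, *Stat5a* or *Stat3*. Each point is a gene in one clone; *Stat5a* stands at 2.77 and 2.12, *Ghdc* at 1.94 and 1.01 and *Kat2a* at 0.16 and -0.28.

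Among ligands of JAK-coupled receptors, 12 of 24 listed cytokines and hormones were tested, and *Lif* and *Il6*, both activators of STAT3, were higher and *Il11* lower in both stimulated clones than in stimulated WT cells. *Lif* held 8.12, 8.72 and 6.99 CPM in stimulated WT cells, 34.9, 37.1 and 30.3 CPM in clone 1 and 45.7, 46.6 and 45.3 CPM in clone 2. Its log2 fold changes were 2.102 (SE 0.14, adjusted p = 5.48e-14) and 2.53 (SE 0.14, adjusted p = 9.18e-16). *Il6* held 11.3, 12.2 and 9.33 CPM, 23.4, 27.1 and 25.8 CPM and 36.5, 37.5 and 40.6 CPM, with log2 fold changes of 1.22 (SE 0.14, adjusted p = 1.18e-08) and 1.80 (SE 0.14, adjusted p = 3.74e-12) (edgeR). *Il11*, another cytokine of that family, went the other way, from 11.5, 10.1 and 6.94 CPM to 0.532, 0.332 and 0.638 CPM and 1.68, 0.523 and 1.02 CPM (log2 fold change -4.26, SE 0.38, adjusted p = 5.47e-11 and -3.12, SE 0.35, adjusted p = 8.42e-09). Stimulation raised all 3 of these cytokines in WT cells, *Il11* by a log2 fold change of 4.02 (SE 0.37, adjusted p = 1.38e-10). *Il7*, an interleukin of lymphocyte growth, had 37 counts over the uninduced WT libraries and none over the stimulated ones, at least 12.98-fold lower at a floor of 3 counts over the group. In clone 1 against WT 2 of the 12 were DEGs higher and 1 lower, in clone 2 3 and 2, where DEGs in either direction made up 19.0% and 16.9% of all tested genes. The list medians were 0.53 and 0.21, beside -0.02 and -0.01 over all tested genes.

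Of 27 listed receptors 17 were tested, and the growth hormone receptor and the IL-6 receptor were higher in both stimulated clones. *Ghr* held 93.7 to 94.6 CPM in stimulated WT cells, 462 to 472 CPM in clone 1 and 341 to 363 CPM in clone 2. Its log2 fold changes were 2.31 (SE 0.05, adjusted p = 1.90e-26) and 1.91 (SE 0.05, adjusted p = 2.00e-24). The libraries of the clones lay far above those of WT cells, in uninduced cells as well (103 to 114 CPM in WT, 305 to 318 and 266 to 281 CPM in the clones). *Il6ra* held 4.69 to 5.18 CPM in stimulated WT cells, 14.7 to 20.7 CPM in clone 1 and 16.2 to 19.4 CPM in clone 2 (log2 fold change 1.87, SE 0.14, adjusted p = 2.06e-12 and 1.85, SE 0.15, adjusted p = 4.09e-12). *Il13ra1*, the receptor chain that with *Il4ra* binds IL-13, was nearly absent from the clones, with 8006 counts over the stimulated WT libraries, 4 over those of clone 1 and 3 over those of clone 2. WT cells thus held 2019-fold as much as clone 2 (95% counting interval 691 to 9794). The leptin receptor *Lepr* was low in all groups and lower in the clones (0.782 to 1.60 CPM in stimulated WT cells, 0.0911 to 0.184 and 0.327 to 0.421 CPM in the clones, edgeR adjusted p = 1.25e-04 and 0.0101). In the WT response *Cntfr*, the receptor of ciliary neurotrophic factor, went from 505 counts to none, at least 177-fold lower, and *Il13ra1* rose by a log2 fold change of 2.34 (SE 0.11, adjusted p = 5.31e-16). Stimulated clones had 5 receptor DEGs higher and 3 lower of 17 in clone 1, and 5 and 2 in clone 2. Of all tested genes, 9.42% were DEGs higher and 9.60% DEGs lower in clone 1, and 7.95% and 8.94% in clone 2. The list medians were 0.50 and 0.71, beside -0.02 and -0.01 over all tested genes.

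Other genes of the 3 families were compared as well. *Stat2* was a DEG in stimulated clone 1 against WT (11.4, 11.7 and 13.3 CPM in WT and 4.53, 4.87 and 5.69 CPM in clone 1). *Jak3* was one as well (1.81, 2.63 and 2.34 CPM and 0.586, 0.922 and 0.0911 CPM), both lower, and neither was one in clone 2. These 2 genes stand outside the rule for named genes and were picked after their values were seen. *Socs5* fell in WT cells from 207, 183 and 177 CPM to 68.5, 69.4 and 68.9 CPM (-1.45, SE 0.06, adjusted p = 2.74e-18), and none of *Socs4*, *Socs5*, *Socs6* and *Socs7* was a DEG between a clone and WT. Of the tested inhibitors and adaptors outside the SOCS family, 18 genes with the PIAS genes and the phosphatases among them, few were DEGs. In stimulated clone 1 it was 1 (*Ptpn6*, higher) and in clone 2 it was 1 (*Sh2b2*, lower), beside 19.0% and 16.9% of all tested genes. The medians were -0.04 and -0.08. *Ptpn6* was low in both groups, at 0.745, 0.737 and 0.683 CPM in stimulated clone 1 and at most 0.451 CPM in stimulated WT cells. *Ptpn6*, the phosphatase SHP-1, was the DEG of that list in the WT response, from 2.80, 4.04 and 3.81 CPM to 0.0489, 0.259 and 0.451 CPM (log2 fold change -3.76, SE 0.37, adjusted p = 5.30e-10).

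Listed target genes of STAT3 were mostly higher in the stimulated clones. All 18 were tested, and by adjusted p alone 12 were higher and 3 lower in clone 1, and 13 higher and 1 lower in clone 2. Over all tested genes 28.4% were higher and 30.5% lower in clone 1, and 27.7% and 28.3% in clone 2. In uninduced cells 10 of the 18 were higher in each clone than in WT cells (background 26.3% and 26.3%), with 3 lower in clone 1, 2 lower in clone 2 and medians of 0.33 and 0.36. Among stimulated cells, 7 of the 18 were DEGs higher and none lower in clone 1, and 9 higher and 1 lower in clone 2. Of all tested genes, 9.42% were DEGs higher and 9.60% DEGs lower in clone 1, and 7.95% and 8.94% in clone 2. The list medians were 0.70 and 0.98, beside -0.02 and -0.01 over all tested genes. *Lcn2*, an iron-binding acute phase protein, held 4.25, 4.97 and 3.83 CPM in stimulated WT cells, 1590.0 to 1843 CPM in clone 1 and 1464 to 1533 CPM in clone 2. It was already at 292 to 331 and 230.5 to 253 CPM in the uninduced clones. *Saa3*, another acute phase gene, had no count in WT cells and was at least 164-fold higher in stimulated clone 1 and at least 320-fold higher in clone 2 at the same floor. In clone 1 *Saa3* held 24.5 to 29.1 CPM uninduced and 7.19 to 7.78 CPM stimulated. In clone 2 it held 16.2 to 16.6 CPM and 13.5 to 15.7 CPM. *Lbp*, which binds bacterial lipopolysaccharide, had log2 fold changes of 3.39 (SE 0.07, adjusted p = 9.75e-21) and 3.76 (SE 0.07, adjusted p = 2.26e-21). Those of the chemokine *Ccl2* were 1.85 (SE 0.12, adjusted p = 8.21e-14) and 2.07 (SE 0.12, adjusted p = 7.84e-15) (edgeR). In clone 1 *Ccl2* held 60.5 to 67.9 CPM uninduced and 19.0 to 21.8 CPM stimulated. In clone 2 it held 23.3 to 23.8 CPM and 22.3 to 24.1 CPM. *Ccl2* and *Saa3* were DEGs lower in the clone 1 response, and 11 of the 18 higher, beside 16.7% of tested genes either way. In WT cells stimulation raised *Timp1*, an inhibitor of matrix metalloproteinases, by 4.13 (SE 0.07, adjusted p = 3.53e-24), and *Icam1* went from 47 counts to 1, 49.5-fold lower (95% counting interval 8.46 to 1995).

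Listed target genes of STAT5 went both ways. Of 10 tested, 2 were DEGs higher and 3 lower in stimulated clone 1, and 2 higher and 1 lower in clone 2, against 19.0% and 16.9% of all tested genes in either direction. Their medians were 0.49 and 0.46, beside -0.02 and -0.01 over all tested genes. *Bcl2l1*, which protects cells from apoptosis, held 30.4, 31.6 and 29.0 CPM in stimulated WT cells, 78.0, 74.0 and 73.1 CPM in clone 1 and 76.0, 73.7 and 74.9 CPM in clone 2 (log2 fold change 1.30, SE 0.07, adjusted p = 2.59e-16 and 1.30, SE 0.07, adjusted p = 4.10e-16). *Aox1*, an aldehyde oxidase, was higher by 1.22 (SE 0.14, adjusted p = 5.44e-09) and 1.36 (SE 0.14, adjusted p = 1.01e-09). *Igf1*, the growth factor that growth hormone induces through STAT5, was lower, at 252, 257 and 251 CPM in WT, 13.8, 14.7 and 16.7 CPM in clone 1 and 1.90, 3.73 and 2.35 CPM in clone 2. Its log2 fold changes were -4.07 (SE 0.09, adjusted p = 2.00e-24) and -6.59 (SE 0.12, adjusted p = 1.80e-26). *Pim1*, a kinase on the STAT3 and STAT5 lists, rose in WT cells (2.12, SE 0.16, adjusted p = 1.69e-12) and *Igfals*, which carries IGF1 in blood, fell (-5.36, SE 0.62, adjusted p = 1.11e-08, edgeR). Of 9 listed STAT6 targets only *Il4ra* was tested, and it rose with stimulation in WT cells by a log2 fold change of 1.78 (SE 0.10, adjusted p = 1.33e-13). Listed interferon target genes fell with stimulation in all genotypes, 8 of 9 tested being DEGs lower in the response of WT cells and likewise 8 in each clone. Of all tested genes, 13.6% were DEGs lower in the response of WT cells, 10.7% in that of clone 1 and 11.2% in that of clone 2. *Ifit3* fell in WT cells from 12.0, 10.4 and 13.6 CPM to 0.0978, 0.389 and 0.271 CPM and *Gbp2* from 12.6, 16.04 and 15.8 CPM to 0.391, 0.864 and 0.767 CPM. Between stimulated clones and stimulated WT cells these 9 genes went both ways, with 1 DEG higher (*Irf7*) and 2 lower in clone 1, and 1 higher (*Ifit3*) and 4 lower in clone 2. The medians were 0.39 and -1.15, and *Irf7* and *Ifit3* are named for this comparison after their values were seen. In all stimulated libraries *Irf7*, *Ifit3*, *Isg15*, *Gbp2* and *Psmb8* lay below 1 CPM, so their directions rest on few counts. The medians rest in part on these genes. *Gbp2* was lower in both stimulated clones (-1.26, SE 0.45, adjusted p = 0.0181 and -1.16, SE 0.48, adjusted p = 0.0432, log2 fold changes). *Psmb8* had 21 counts over the stimulated WT libraries and none in either clone, at least 7.22-fold and 5.30-fold lower.

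**Figure D5:**
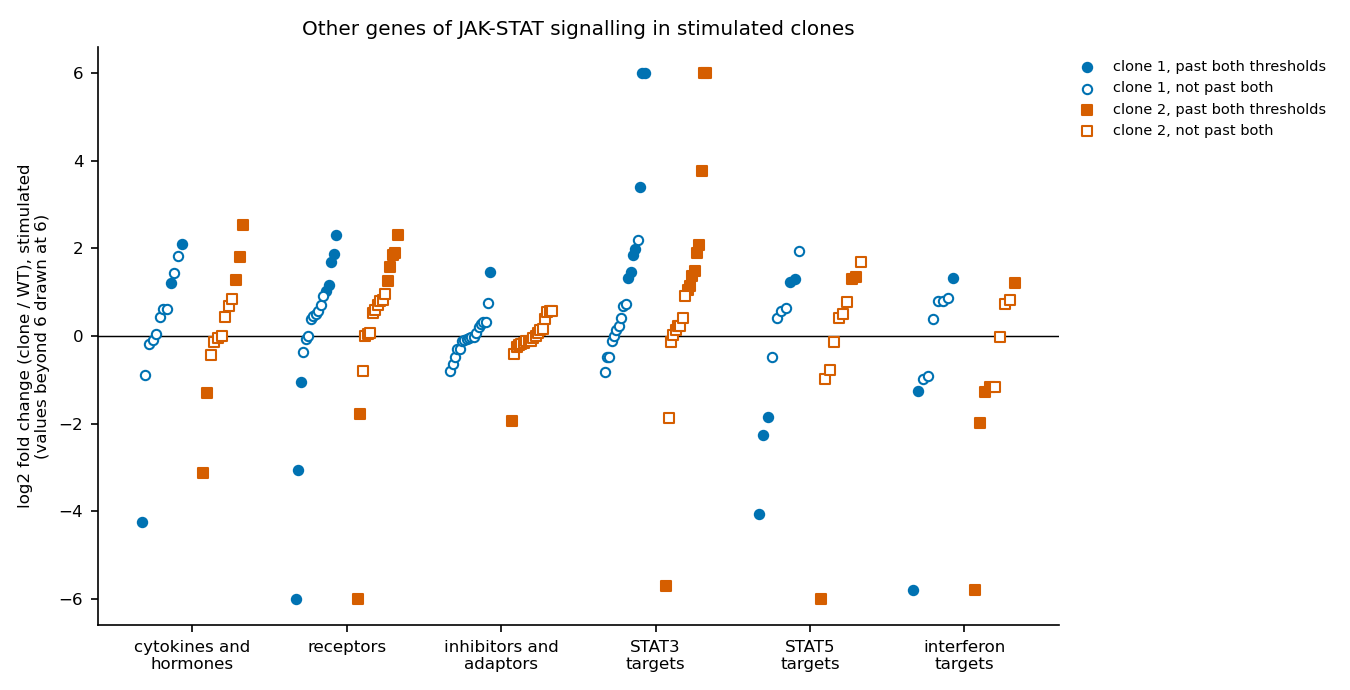
Log2 fold change of stimulated clones over stimulated WT cells (vertical axis, values beyond 6 in either direction drawn at that limit) for the tested genes of 6 lists (horizontal axis), sorted within each list. Points are genes (filled, DEG in edgeR, and open, not). STAT3 targets hold 7 DEGs above 0 and none below in clone 1, and 9 above and 1 below in clone 2. Of all tested genes, 9.42% were DEGs higher and 9.60% DEGs lower in clone 1, and 7.95% and 8.94% in clone 2. STAT5 targets lie on both sides of 0.

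Over the 6 group means, the tested genes whose centred log2 CPM lay closest to *Stat5a* among 10059 genes averaging 5 CPM or more were *Glul* (root mean square difference 0.130), *Heg1* (0.183) and *Prickle2* (0.224), where *Stat5a* itself had an SD of 0.854 over the groups. For the other members the closest genes were *Rfxank* (*Stat3*, 0.0734), *BC037039* (*Stat5b*, 0.0851), *Ube2w* (*Stat6*, 0.0778), *Arglu1* (*Jak1*, 0.0441), *Rev3l* (*Jak2*, 0.110), *Rps2* (*Socs1*, 0.0488), *Tet2* (*Socs2*, 0.143), *Luzp1* (*Socs3*, 0.0723) and *Parp12* (*Cish*, 0.208). In each pair both genes were read from the same libraries, and the distances describe likeness of pattern only.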

How the data were processed

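The data were bulk RNA-seq counts of 18 10T1/2 libraries. Poly(A) libraries were read from both ends (150 bp) and mapped to GRCm38 (mm10) with HISAT2. The authors deposited raw counts per gene, without normalization. For the counting program, annotation release and strand, nothing is given in the sources used here. Coordinates and exon lengths came from the deposited table, and overlaps, neighbours and transcript sequences from GENCODE M21 (GRCm38). Upstream sequences were RefSeq's (GRCm38.p6).

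Low counts were removed by filterByExpr (by group, minimum count 10), and the rest were scaled by TMM and fitted in 1 model of the 6 groups with edgeR 4.0.16 (glmQLFit, robust) in R 4.3.3. The 11 comparisons were tested with glmQLFTest and adjusted by Benjamini-Hochberg over 14317 genes. DEGs needed more than a 2-fold change and an adjusted p under 0.05, and intervals are 95% intervals. Alternatives were the DESeq2 1.42.0 Wald test, its size factors, other filters, a replicate block, a fit of just the compared groups, other fold thresholds and each library left out. Tables and figures used Python 3.11.15 and matplotlib 3.10.9. Library totals ran from 15576685 to 42005596 counts (median 20178954), and libraries of 1 group had an r of 0.963 to 0.993 over genes but differed beyond counting error (chi-square per degree of freedom 3.13 to 14.6), so none was a duplicate. Floors of 3 counts and counting intervals cover counting error only. The fits were tested on simulated data.

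The 10 genes, the lists and the comparisons were chosen with earlier results of these data known. Named were the 10 genes, *Foxs1* and, from each list, genes past both thresholds in both stimulated clones in 1 direction (at most the 4 with the largest smaller change) and the 2 largest DEGs of the WT response. For likeness, log2 CPM with a prior count of 2 was used, with 3 genes named for *Stat5a* and 1 for each other member. Some results that this rule names are not reported here. No per-library column of the table was left unused.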

Additional observations from a re-analysis of the deposited data

Results flagged for a closer look

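The response to stimulation differed from that of WT cells, past both thresholds in edgeR's interaction test, for *Stat5a* and *Socs2* in clone 1, by log2 values of 2.97 and 1.15, and for *Stat5a*, *Jak2* and *Socs2* in clone 2, by 2.02, 1.41 and 1.23. The adjusted p-values were 1.41e-20 and 4.46e-09 in clone 1 and 1.08e-16, 6.84e-13 and 1.19e-09 in clone 2. *Stat5a* and *Jak2* fell in WT cells and rose in both clones, and the *Jak2* difference in clone 1, 0.87, passed the adjusted p without reaching 2-fold. Both clones share the WT libraries, and the loss of FOXS1 cannot be told apart from other changes in a clone.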

How the results depend on the processing

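Of 2640 refits of single log2 fold changes, 2604 kept their direction and their side of the thresholds, 18 passed them newly and 18 changed sign, the last all for values that were not called. The counts of called members were 8, 8 and 6 for the responses of WT cells, clone 1 and clone 2 without the fold threshold, 7 and 7 for uninduced clones 1 and 2 against WT, 7 and 9 for stimulated ones, 6 and 6 for the differences in response and 7 and 8 between the uninduced and the stimulated clones. With the fold tested against the threshold (glmTreat), 1 member was called in the clone 1 response (*Stat5a*), 0 in uninduced clone 2, 1 in the difference of clone 1 (*Stat5a*) and 2 in that of clone 2, so *Cish* in the clone 1 response and in uninduced clone 2 and *Socs2* in both differences did not pass a test against 2-fold. DESeq2 called 2 members in the clone 2 response, adding *Cish*, and 4 in the difference of clone 2, again adding *Cish*, as did the filter of 1 CPM in 3 libraries. Leaving out 1 library gave 3 to 4 calls for the WT response, 2 to 3 for clone 1, 1 to 2 for clone 2, 2 to 3 and 3 to 4 for the differences, 0 to 1 between uninduced clones, and the same counts as with all libraries (0, 1, 3, 3 and 0) elsewhere. The second call of the clone 2 response was *Jak2* without stimulated clone 2 replicate 1, and *Cish* without replicate 1 of uninduced clone 1, replicate 1 or 2 of uninduced clone 2 or replicate 2 of stimulated clone 2. *Cish* was also the added call in the difference of clone 2, without stimulated clone 1 replicate 3 or uninduced clone 2 replicate 3, and between uninduced clones, without clone 1 replicate 2 or clone 2 replicate 3.

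Signs changed for the *Socs3* difference of clone 1, -0.01 with TMM, which was 0.0090 with DESeq2 size factors, 0.0073 with the 1 CPM filter and 0.0092 with DESeq2. The *Socs2* response of clone 2 was -0.0067 without the filter. With a library left out, the lowest and highest values were -0.044 and 0.020 for the *Socs3* difference of clone 1, -0.18 and 0.29 for that of *Socs1*, -0.046 and 0.025 for *Stat6* in the clone 1 response, -0.33 and 8.02e-05 for *Cish* in stimulated clone 2 against WT, -0.039 and 0.012 for *Jak1* and -0.0033 and 0.049 for *Jak2* between uninduced clones, and -0.030 and 0.039 for *Socs3* between stimulated clones. With replicate number as a block, the counts of called members were 3, 2, 1, 0, 1, 3, 3, 2, 3, 0 and 0 in the order above, the counts found without it. Same-numbered libraries of different groups did not deviate together (45 correlations from -0.04 to 0.05, 0 above 0.1). No shared effect of the numbers was thus visible, which does not show whether same-numbered libraries were handled together. Normalization by DESeq2 size factors moved the median of all genes by at most 0.0147 and no level per kb by more than 0.491%. *Cish*, at 33 to 63 counts over each stimulated group, and *Socs1*, with 1 widely spread WT group, are limited by depth or spread, and no source ties libraries to separate cultures. The cause of these changes was not tested.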
